A study of Mus musculus with 12 samples.

Results

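Of 18193 genes measured in the adult mouse auditory nerve, 32 were higher in ouabain-treated ears at 7 days after exposure while they stood close to the control level at 3 days. They were chosen from group means of log2 expression values. The mean of the ouabain-treated arrays at 7 days had to exceed the control mean of that day by at least 1.0. The same difference at 3 days had to lie between -0.3 and 0.3, and the ouabain mean at 7 days had to reach at least 6. A gene was represented by its brightest probe set, among the probe sets that carry 1 gene symbol. These values chose the genes, so the differences of the 32 genes at both days, and between the days, are given as a description. Where the calls of the fit over all genes are counted for them, nothing is read from the count.

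The tissue came from CBA/CaJ mice aged 8 to 12 weeks. Ouabain, which blocks the pump that exchanges sodium for potassium, was given at the round window niche of the right ear, at 3 mM in about 10 µl, renewed over a cumulative 60 min. The left ear of the same animals was not operated on and served as the control, so the controls carry neither the surgery nor the drug. Ears were taken 3 days or 7 days later, the bony shell, the lateral wall and most of the sensory epithelium were removed, and RNA of the remaining modiolus, the core that holds the auditory nerve, was put on Affymetrix mouse arrays, 3 for each of the 4 combinations of day and ear. The RNA of an array was a pool of 2 preparations from animals that are not named, so errors measure the spread between pooled samples that may be partly technical. The number of arrays limits the precision. Array medians lay between 6.01 and 6.09, and the lower quartile of an array lay between 4.26 and 4.39, which is used here as a guide to the low end of the scale. The spread among controls was not even. The control labelled replicate 1 at 7 days had markers of dividing cells at a mean log2 level of 7.80, against 5.67 and 5.46 in the other controls of that day, and markers of erythroid cells at 7.78 against 5.91 and 5.77. The labelled tissue was checked against markers of spiral ganglion neurons, which had a mean level of 10.5 to 10.8 on the 6 control arrays, and of Schwann cells, at 11.2 to 11.3.

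Ouabain at the round window kills type I spiral ganglion neurons and leaves much of the supporting tissue in place. After loss of its axons a peripheral nerve passes through stages. Macrophages enter and clear debris, Schwann cells lose myelin and divide, and fibroblasts lay down and crosslink new matrix. Collagens of the fibril-forming type give tensile strength, lysyl oxidase joins them into fibres, and matrix metalloproteinases cut them. CLCA proteins are secreted or membrane-bound relatives of metalloproteases that regulate calcium-activated chloride channels of epithelia. Since bulk tissue was measured, fewer cells of a type and less RNA per cell cannot be told apart, nor can more cells and more RNA per cell.

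The rule was met by 0.176% of all genes. A 7-day difference of at least 1.0 was found for 448 genes, 2.46% of all, and 420 of them reached the required level. Among those 420, 385 stood more than 0.3 above the controls already at 3 days, 3 stood more than 0.3 below them, and 32 lay between. Beside these, 3 genes met both differences and missed only the level. The median difference of the 32 genes was 1.09 at 7 days and 0.15 at 3 days, where the medians of all genes were 0.03 and 0.01. Most lay near the limit, with 24 of 32 below 1.2 on the log2 scale, and 3 genes reached 2, namely Clca3a2, Mmp12 and Clca3a1. At 3 days 24 of the 32 differences were above 0 and 8 below.

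**Figure D1:**
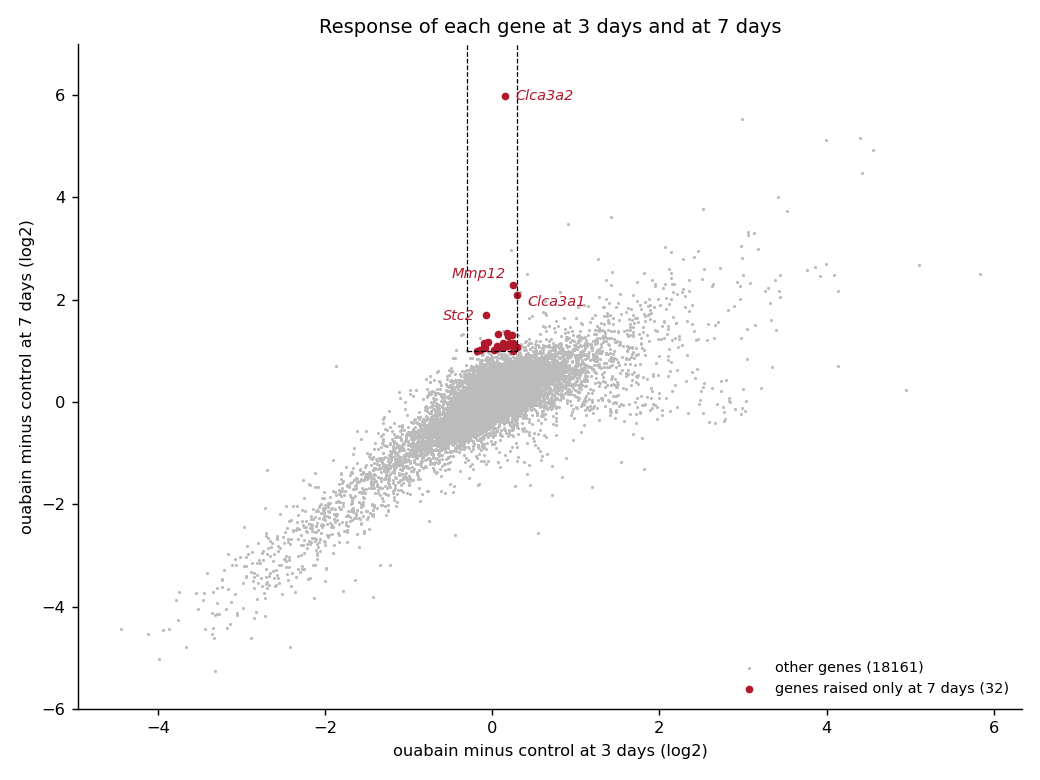
Difference between ouabain-treated and control means (log2) at 3 days (x axis) and at 7 days (y axis) for 18193 genes, with the 32 chosen genes in red, the other 18161 in grey and the limits of the rule on the differences as dashed lines. Clca3a2 stands at 5.97, well above the next chosen gene, Mmp12, at 2.28, and grey points within the dashed lines missed only the required level.

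The chosen genes included 2 neighbours on chromosome 3 that were among the 3 genes past 2, Clca3a2 and Clca3a1. The 250 bases upstream of the annotated start site of Clca3a1 are shown as an example. The rule asked for high values on the ouabain arrays at 7 days, so shared height there does not link the neighbours. The probe set of Clca3a1 may also read its neighbour. The sequences printed here are RefSeq's on GRCm38.p6, written 5′ to 3′, with matches to the searched motifs in capitals. The Clca3a1 window is chr3:144760978-144761227 on the minus strand.

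Clca3a1: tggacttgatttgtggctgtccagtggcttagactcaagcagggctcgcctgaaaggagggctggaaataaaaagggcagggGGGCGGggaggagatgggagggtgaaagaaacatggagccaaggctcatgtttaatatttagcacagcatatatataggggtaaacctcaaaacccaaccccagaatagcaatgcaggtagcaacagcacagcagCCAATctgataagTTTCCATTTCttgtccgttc

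The search covered both strands for the TATA box TATAAA, the kappaB letters (GGG and TTCC with any 3 bases between, or GGG and TTTCC with any 2), AP-1 TGANTCA, the cyclic AMP element TGACGTCA, the interferon-stimulated element (GAAA and GAAA with any 2 bases between), the STAT element TTCNNNGAA, the hypoxia core ACGTG, the CCAAT box and the SP letters GGGCGG. In Clca3a1 the interferon-stimulated letters began at -20 from the start site, CCAAT at -33 and the SP letters at -168. A promoter window was searched for 18 of the 32 genes, 20 windows in all. The interferon-stimulated letters stood in 1 of these 20 windows and in 2.98% of 32851 promoter windows of the same length, and the kappaB forms in 0 of 20, against 4.65% and 1.41%. AP-1 letters stood in 4 of the 20 windows, those of Mmp12, Krtdap, Col6a1 and Fbp2, and in 6.75% of all windows. The last 3 of these have a single window each, and they are shown for the place of these letters.

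Krtdap: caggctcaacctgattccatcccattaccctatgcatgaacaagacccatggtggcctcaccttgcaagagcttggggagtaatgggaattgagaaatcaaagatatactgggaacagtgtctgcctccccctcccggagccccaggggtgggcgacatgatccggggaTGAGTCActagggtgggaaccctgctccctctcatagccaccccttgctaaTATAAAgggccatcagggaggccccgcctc
Col6a1: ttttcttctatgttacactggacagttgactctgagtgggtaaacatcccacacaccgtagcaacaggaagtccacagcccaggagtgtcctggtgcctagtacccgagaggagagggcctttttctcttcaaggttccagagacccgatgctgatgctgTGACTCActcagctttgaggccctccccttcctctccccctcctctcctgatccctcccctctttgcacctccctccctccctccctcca
Fbp2: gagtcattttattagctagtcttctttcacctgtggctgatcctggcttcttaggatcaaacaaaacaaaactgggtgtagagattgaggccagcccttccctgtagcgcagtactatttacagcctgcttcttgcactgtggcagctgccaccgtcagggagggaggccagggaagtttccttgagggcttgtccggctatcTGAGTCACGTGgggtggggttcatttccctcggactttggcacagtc

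Their windows are chr7:30787655-30787904 on the plus strand for Krtdap, chr10:76726045-76726294 on the minus strand for Col6a1 and chr13:62858401-62858650 on the minus strand for Fbp2. The AP-1 letters began at -81 in Krtdap, where TATA letters followed at -30, at -90 in Col6a1, and at -47 in Fbp2, where they ran into the hypoxia core. The SP letters were found in 7 of 20 windows and in 32.7% of all, CCAAT in 7 of 20 and in 33.8%, the hypoxia core in 1 of 20 and in 16.6%, and TATA letters in 2 of 20 and in 12.4%. The 7 windows with CCAAT belong to 6 genes, since Hsd17b6 has overlapping windows that share matches. STAT letters were found in Agt alone, against 7.02% of all windows, and the cyclic AMP element in none, against 1.55%. The median GC content was 55.8% in the 20 windows of the chosen genes and 52.4% in all. These matches describe letters only.

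Clca3a2 showed the widest separation of all 32 genes. Its log2 values were 3.45, 3.35 and 3.62 in the controls at 3 days, 3.78, 3.59 and 3.50 in the ouabain-treated ears at 3 days, 3.42, 3.33 and 3.34 in the controls at 7 days, and 9.11, 9.07 and 9.83 in the ouabain-treated ears at 7 days. All 9 other arrays lay at the low end of the scale, below the lower quartile of an array, and the 3 ouabain arrays at 7 days stood far above it. The 7-day difference was 5.97 ± 0.17 (SE, 3 arrays a group) on the log2 scale, against 0.15 at 3 days. With controls at the low end of the scale it is not a measured ratio of transcript levels, and no fold is given. A dimmer probe set of the gene read 6.75, 5.17 and 7.32 in the ouabain-treated ears at 7 days and between 2.69 and 3.13 on the other 9 arrays, so it also met the rule.

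Clca3a1, at chr3:144729677-144760977, read 4.22, 4.34 and 4.28 in the controls at 3 days, 4.48, 4.59 and 4.66 after ouabain at 3 days, 4.39, 3.59 and 3.78 in the controls at 7 days, and 5.88, 5.82 and 6.31 after ouabain at 7 days. The 7-day difference was 2.09 ± 0.18, and its ouabain mean of 6.01 only just reached the required level. Its probe set is of the kind marked x_at, whose probes also match other transcripts, so its signal cannot be kept apart from that of its relatives. Its other probe set read 4.54, 4.87 and 3.72 in the ouabain-treated ears at 7 days and 3.49, 3.79 and 3.28 in their controls, so those groups overlapped at 1 array. A list of CLCA proteins, anoctamins and bestrophins, which form or regulate chloride channels, held 14 other genes. Limma called 0 of the 14 at either day. With an unadjusted p under 0.05 and the fold threshold kept, 0 passed at 3 days and 1 at 7 days. The methods' t-test called 0 of 14 at both days, adjusted or not. Calls needed a p under 0.05 after Benjamini-Hochberg adjustment over all probe sets, together with more than a 1.5-fold change. Of all genes limma called 7.51% higher and 8.06% lower at 3 days, and 7.57% higher and 8.20% lower at 7 days. Only 6 of the 14 reached a mean of 6 in any group, so the counts say little about the other genes of the list. The median difference of the 14 at 7 days was 0.01. The largest were Clca2, at 0.59 ± 0.21 (limma adjusted p = 0.0552), and Ano6, at 0.47 ± 0.09 (limma adjusted p = 0.00185), a scramblase and channel that stayed below the fold threshold.

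By the same limma rule, 29 of the 32 genes were called higher at 7 days, as were 7.57% of all genes. Col1a1, Ifi27l2a and Dynlrb2 were the 3 not called. The 3 ouabain arrays lay above the 3 controls of 7 days for 29 of 32 genes and for 25.6% of all genes, and above all 9 other arrays for 25 of 32 and for 6.75% of all. At 3 days the ouabain arrays lay above the controls for 3 of 32 genes and for 22.4% of all. At 3 days 0 of the 32 were called by limma or by the methods' t-test, with adjusted or unadjusted p. The rule fixed all of these counts, since a difference within 0.3 cannot pass the fold threshold that each call needed. Of all genes 7.51% were called higher and 8.06% lower at 3 days, and 8.20% lower at 7 days. These shares are the background for the list counts that follow. The day difference, the 7-day minus the 3-day response, was called for 8 of the 32, and for 0.247% of all genes as a higher and 0.923% as a lower response at 7 days. The rule used the differences of both days, which sets the day difference to at least 0.7, so none of these counts is evidence about the 32 genes.

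Mmp12 and Clec10a are known from macrophages. Mmp12, the macrophage elastase, read 3.62, 3.46 and 4.01 in the controls at 3 days, 3.78, 4.19 and 3.84 after ouabain at 3 days, 3.66, 3.24 and 4.41 in the controls at 7 days, and 7.03, 5.20 and 5.94 after ouabain at 7 days. The nearest arrays of the groups at 7 days, 5.20 and 4.41, were 0.79 apart, and the ouabain arrays spanned 1.83, a range exceeded among the 32 genes by Cyp26a1 and Dynlrb2 alone. The difference was 2.28 ± 0.39. Clec10a, a galactose-binding lectin of macrophages and dendritic cells, read 5.96, 6.06 and 6.16, then 6.27, 6.20 and 6.26 at 3 days, in controls and ouabain-treated ears respectively, and 5.66, 5.88 and 6.31, then 6.94, 7.14 and 7.17 at 7 days. Its difference was 1.13 ± 0.14, and the 3 ouabain arrays of 7 days exceeded all others.

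General macrophage markers had a different course. All 10 markers of macrophages and microglia were called higher at both days, and their mean level was 10.2 to 10.6 on the ouabain arrays at 3 days and 10.3 to 10.5 at 7 days, against 8.12 to 8.64 on the 6 controls. Their part in the values of Mmp12 and Clec10a was not tested. Of 19 other genes of resident and alternatively activated macrophages, 8 were higher and 2 lower at 3 days, and 6 were higher and 1 lower at 7 days, with a median of 0.34 at 7 days. Mrc1, the mannose receptor, was higher by 1.14 at 3 days and by 1.15 ± 0.11 at 7 days (limma adjusted p = 1.14e-05), and Folr2, a folate receptor, by 1.36 and by 0.95 ± 0.11 (limma adjusted p = 6.45e-05). Il4ra, a receptor chain for interleukins of the alternative pathway, was higher by 0.75 at 3 days and by 1.04 ± 0.14 at 7 days (limma adjusted p = 0.00157 and 0.000158), and Gas6, a bridging ligand for the clearance of dead cells, was lower at both days, with differences of -0.85 and -1.05 ± 0.15 (limma adjusted p = 0.00112 and 0.000261). Mgl2, the nearest relative of Clec10a, was lower at 3 days, with -0.72 ± 0.14 (limma adjusted p = 0.00256), and did not pass at 7 days, with -0.40 (limma adjusted p = 0.0618). Among the other metalloproteinases, Mmp19 was higher at both days, by 2.96 and 2.26 ± 0.22, and so was Mmp14, by 1.19 and 0.84 ± 0.14, while Mmp2 was called at 7 days alone, at 0.90 ± 0.10 (limma adjusted p = 5.67e-05). For Mmp2 the day difference itself was 0.56 (limma adjusted p = 0.114), so a difference between the days was not shown.

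**Figure D2:**
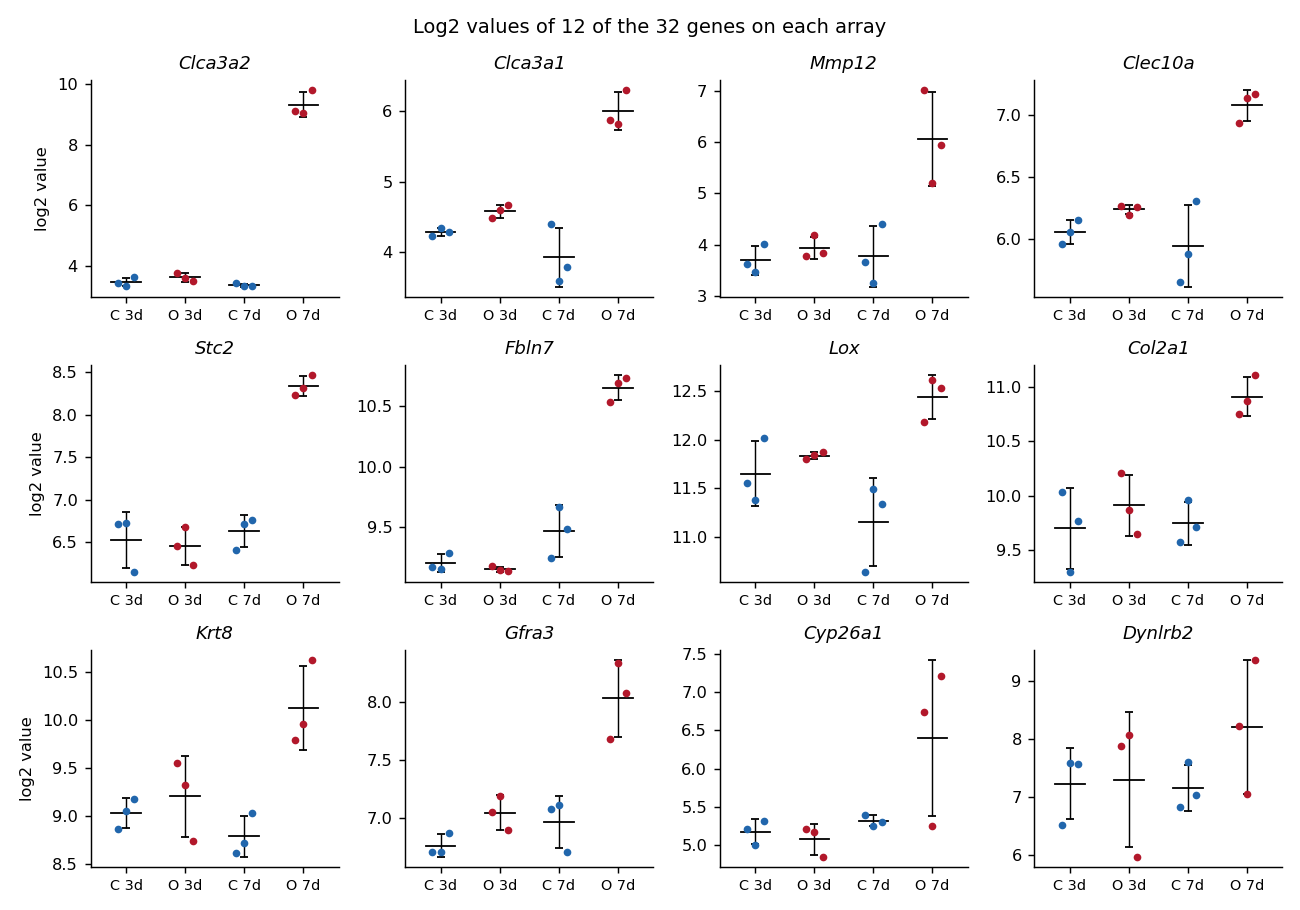
Log2 expression values (y axis, its range differs between panels) of 12 of the 32 genes on the 3 arrays of each group, control (blue, C) and ouabain (red, O) at 3 and 7 days (3d, 7d), with the group mean as a line and the SD as error bars. Stc2 and Fbln7 show tight ouabain arrays at 7 days above all others. Those of Clca3a2 also lie above all others but span 0.76, whereas 1 ouabain array of Cyp26a1 and Dynlrb2 lies at the control level.

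Several of the 32 genes encode proteins of the extracellular matrix. Col1a1, a chain of type I collagen, read 9.48, 7.72 and 8.11 in the controls at 3 days, 8.94, 7.94 and 8.63 after ouabain at 3 days, 9.94, 8.44 and 8.82 in the controls at 7 days, and 10.58, 9.87 and 10.75 after ouabain at 7 days. Its groups overlapped at 7 days, since control replicate 1, at 9.94, stood above the lowest ouabain array, and the difference was 1.33 ± 0.47. Its partner chain Col1a2 was bright on every array, at 13.06 to 13.61, and differed by 0.35 ± 0.10 at 7 days, below the fold threshold (limma adjusted p = 0.0169).

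Col2a1, the main collagen of cartilage, read 10.03, 9.30 and 9.77 in controls and 10.21, 9.87 and 9.65 after ouabain at 3 days, then 9.57, 9.96 and 9.71 in controls and 10.75, 10.87 and 11.11 after ouabain at 7 days. Col11a1, which sits in the same fibrils, read 10.93, 10.55 and 10.50 in controls and 11.11, 10.34 and 10.57 after ouabain at 3 days, then 10.68, 10.42 and 10.57 in controls and 11.80, 11.30 and 11.64 after ouabain at 7 days. For both, the 3-day groups overlapped and the 7-day groups did not. The 7-day differences were 1.16 ± 0.19 for Col2a1 and 1.02 ± 0.19 for Col11a1. A second probe set of Col11a1 differed by 1.22 at 7 days but also by 0.41 at 3 days, outside the limit.

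Mia, a small secreted protein of cartilage, read between 8.80 and 9.95 on the 6 arrays of 3 days, 9.19, 8.93 and 9.01 in the controls at 7 days, and 10.22, 10.04 and 10.05 after ouabain at 7 days. Other cartilage markers were measured beside these. Of 8 that the rule did not choose, 2 were called higher at 7 days, Col9a1 at 0.74 ± 0.22 (limma adjusted p = 0.0264) and Sox9, a transcription factor of cartilage and glia, at 0.67 (limma adjusted p = 0.00592). The mean level of the 8 was 6.87 to 7.10 in the controls at 7 days and 7.34 to 7.48 after ouabain, while at 3 days it was 7.06 to 7.19 and 6.71 to 7.09. Acan, the main proteoglycan of cartilage, differed by -0.74 at 3 days and 0.38 at 7 days and was not called, and Matn1 and Matn3, the cartilage matrilins, stayed at the low end of the scale, at 3.40 to 4.41 on all 12 arrays. The part of cartilage cells in these values was not tested.

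Col6a1, a chain of the beaded filaments of nerve and connective tissue, read 9.40, 9.08 and 9.08 in controls and 9.46, 9.23 and 9.63 after ouabain at 3 days, then 8.86, 8.54 and 8.85 in controls and 9.92, 9.59 and 10.01 after ouabain at 7 days. Here the controls were lower at 7 than at 3 days, by 0.44, and the ouabain means differed by 0.40 between the days, so the 7-day difference of 1.09 ± 0.15 arose on both sides. Its partner chains were called at 7 days, Col6a2 at 0.84 ± 0.20 (limma adjusted p = 0.00787) and Col6a3 at 0.90 ± 0.17 (limma adjusted p = 0.00181). At 3 days these chains differed by 0.13 and 0.47 and were not called, and their day differences did not pass, with limma adjusted p = 0.302 and 0.495.

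Lox, lysyl oxidase, read 11.55, 11.38 and 12.02 in controls and 11.80, 11.84 and 11.87 after ouabain at 3 days, then 10.64, 11.49 and 11.34 in controls and 12.18, 12.61 and 12.53 after ouabain at 7 days. The ouabain arrays of 7 days stood above all others, and the difference was 1.28 ± 0.21. The controls at 7 days were 0.49 below those at 3 days, with replicate 1 lowest. Its relatives Loxl1, at 0.75 ± 0.15 (limma adjusted p = 0.00296), and Loxl3, at 0.88 ± 0.12 (limma adjusted p = 0.000188), were also called at 7 days, and Loxl3 at 3 days as well. The day difference of Loxl1 did not pass (limma adjusted p = 0.219).

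Fbln7, a fibulin that binds cells to matrix, read 9.17, 9.16 and 9.29 in controls and 9.18, 9.15 and 9.14 after ouabain at 3 days, then 9.25, 9.67 and 9.49 in controls and 10.53, 10.69 and 10.73 after ouabain at 7 days. At 3 days the 6 arrays lay within 0.15 of each other, the tightest of the 32 genes, and the 7-day difference was 1.18 ± 0.11. Other fibulins were not called. Fbln1, Fbln5 and Efemp1 differed by 0.44 to 0.49 at 7 days, and Fbln2 by 0.08.

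Cpxm1, a carboxypeptidase-like protein of the matrix, read 9.76, 9.71 and 9.41 in controls and 9.77, 9.79 and 9.71 after ouabain at 3 days, then 9.75, 9.98 and 10.24 in controls and 11.12, 10.99 and 11.31 after ouabain at 7 days. Its relative Cpxm2 read 8.66, 8.94 and 8.92 in controls and 9.50, 9.16 and 8.75 after ouabain at 3 days, then 8.53, 8.94 and 8.99 in controls and 9.76, 9.86 and 10.06 after ouabain at 7 days. Both were separated at 7 days, with differences of 1.15 ± 0.13 and 1.08 ± 0.18, and Cpxm2 lay near the 3-day limit, at 0.29. Another member of this family, Aebp1, was called at both days, at 0.64 and at 1.24 ± 0.12 (limma adjusted p = 1.43e-05 at 7 days).

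Of 18 other genes of fibrillar collagens and their processing, 7 were called higher at 3 days and 13 at 7 days, and none lower, with medians of 0.53 and 0.71. Col5a1 and Col5a2, which start fibrils, were higher by 2.14 and 2.20 at 3 days and by 2.43 ± 0.22 and 1.55 ± 0.22 at 7 days (limma adjusted p = 1.03e-05 and 0.000301 at 7 days). Pcolce, which speeds the trimming of procollagen, was higher by 0.89 at 3 days and by 1.22 ± 0.11 at 7 days (limma adjusted p = 1.05e-05). Serpinh1, a collagen chaperone, was higher by 1.08 ± 0.25 at 7 days and differed by 0.56 at 3 days, where it was not called (limma adjusted p = 0.00646 and 0.134). The day difference of Serpinh1 did not pass (limma adjusted p = 0.589). Of 20 genes of basement membrane and perineurium, 2 passed as higher at 3 days and 7 at 7 days, with Nid2 at 1.38 and 1.69 ± 0.17 and Cldn1 at 0.77 and 1.10 ± 0.22 at 3 and 7 days (limma adjusted p = 1.74e-05 and 0.00282 at 7 days), while 1 was lower at both days, Lama1, from 7.43 in controls to 6.43 after ouabain at 7 days (limma adjusted p = 0.00039). Fibroblast markers that the rule did not choose gave 3 of 10 called higher at 7 days and 1 at 3 days, and osteoblast and osteocyte markers 1 of 7 at 7 days, Phex, at 0.95 (limma adjusted p = 0.00232). The mean level of the osteoblast list was 9.48 to 9.81 in the controls at 7 days and 9.90 to 10.3 after ouabain. At 3 days it was 9.28 to 10.06 in controls and 9.30 to 9.68 after ouabain, so a control of 3 days reached the range of the ouabain arrays of 7 days. The part of osteoblasts in the matrix values was not tested.

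**Figure D3:**
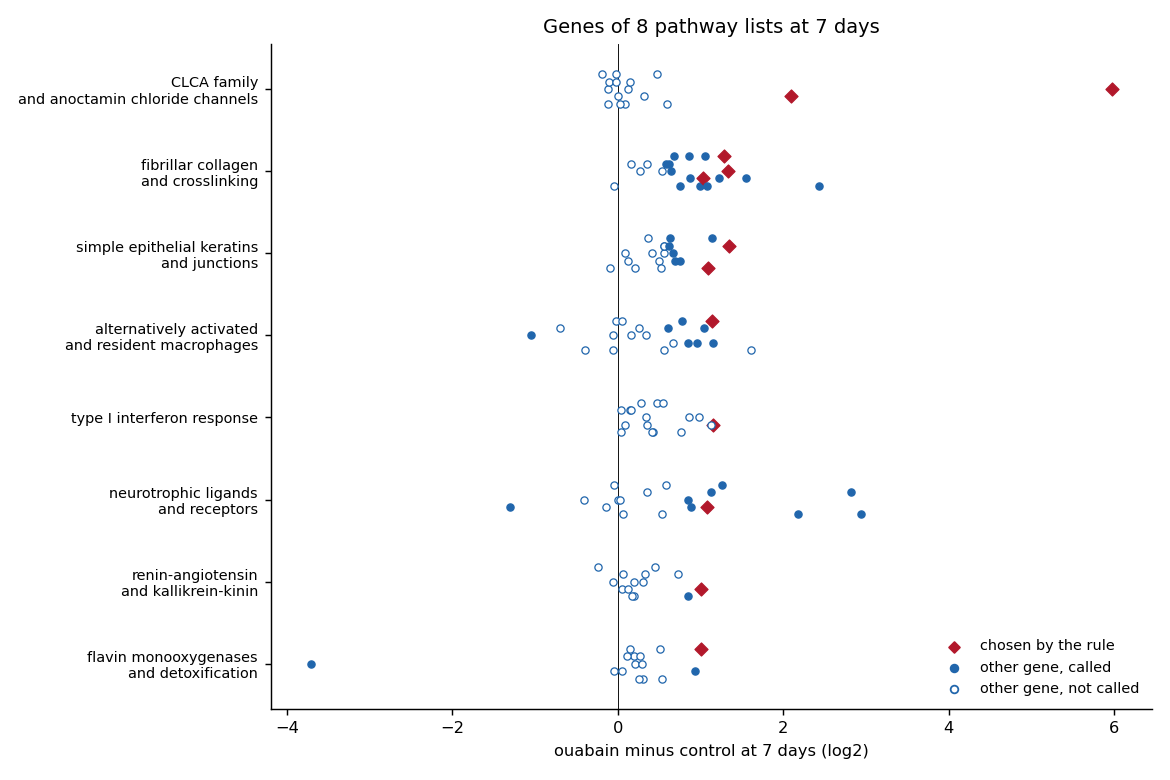
Difference between ouabain-treated and control means at 7 days (x axis, log2) for the genes of 8 pathway lists, with genes chosen by the rule as red diamonds, other genes called by limma as filled circles and those not called as open circles. Several collagen and neurotrophic genes outside the rule lie further right than the chosen ones, while the largest of the other CLCA, anoctamin and bestrophin genes was Clca2 at 0.59.

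Several other genes are known from epithelia. Krt8, a keratin of simple epithelia and of the organ of Corti, read 8.87, 9.06 and 9.18 in controls and 9.56, 9.33 and 8.74 after ouabain at 3 days, then 8.62, 8.72 and 9.03 in controls and 9.80, 9.96 and 10.63 after ouabain at 7 days. All 3 ouabain arrays at 7 days exceeded the other 9, by a difference of 1.34 ± 0.23 over their controls. Both other probe sets of Krt8 also met the rule, with 1.33, but they are of the x_at kind, whose probes also match other transcripts. Krt18, its partner in the filament, just missed the 3-day limit at 0.34 and was called at 7 days, at 1.14 ± 0.28 (limma adjusted p = 0.00922).

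Krtdap, a secreted protein of differentiating keratinocytes, read between 5.85 and 6.53 on the 6 arrays of 3 days, 5.54, 5.87 and 6.09 in the controls at 7 days, and 7.38, 7.09 and 6.94 after ouabain at 7 days. Igsf5, an adhesion molecule of tight junctions, read 5.86 to 6.45 at 3 days, 5.56, 6.32 and 6.39 in the controls at 7 days, and 6.86, 7.28 and 7.62 after ouabain. Prss22, a tryptase of airway epithelium, read 5.73 to 6.27 at 3 days, 5.63, 6.11 and 6.30 in the controls at 7 days, and 6.58, 7.26 and 7.47 after ouabain. In each of these 3 genes the ouabain arrays of 7 days were above every other array, and the gap to the nearest control was 0.28 for Prss22. Their differences were 1.31 ± 0.17, 1.16 ± 0.24 and 1.09 ± 0.22.

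Of 17 other genes of simple epithelia and their junctions, 0 were called at 3 days by limma or by the methods' t-test. This held for adjusted and for unadjusted p, with the fold threshold kept. At 7 days limma called 6 of 17 higher, with a median of 0.55 over the list, whereas the methods' t-test with adjusted p called 0 of 17 and with unadjusted p 6. They included Cldn3, a claudin of tight junctions, at 0.75 ± 0.17, Prss8, a serine protease of the cell surface, at 0.69 ± 0.17, and Esrp1, a splicing factor of epithelia, at 0.66 ± 0.18 (limma adjusted p = 0.00548, 0.00945 and 0.0159). Day differences of these named genes did not pass, with limma adjusted p between 0.209 and 0.425. Of 10 other supporting cell markers of the organ of Corti, 2 were higher at 7 days, Krt18 and Sox2, and the mean of the list was 9.21 to 9.51 in the controls at 7 days and 9.52 to 9.72 after ouabain. At 3 days the list mean was 9.35 to 10.03 in controls and 9.27 to 10.22 after ouabain. A control of 3 days thus stood above the ouabain arrays of 7 days.

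Markers of respiratory or middle ear epithelium moved between arrays. Of 11, 2 were higher at 7 days, with list means of 5.71 to 6.18 in controls and 6.15 to 6.65 after ouabain. Sftpd, surfactant protein D, missed the 3-day limit at 0.34 and read 5.16, 5.20 and 5.04 in the controls and 7.81, 5.77 and 8.28 after ouabain at 7 days, a difference of 2.15 (limma adjusted p = 0.0105). Scgb1a1, a club cell secretoglobin, was higher at both days. Bpifa1, an airway secretory protein, ranged from 7.98 to 13.84 over the 12 arrays with both extremes at 3 days, and Krt5 and Trp63, which mark basal cells, stayed between 5.07 and 6.30 on all arrays.

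Ouabain replicate 2 at 7 days, the lowest of its group for Sftpd, was also the lowest for Dynlrb2 and Cyp26a1. Dynlrb2, a dynein light chain of motile cilia, read 6.52, 7.59 and 7.57 in controls and 7.87, 8.06 and 5.96 after ouabain at 3 days, then 6.82, 7.60 and 7.03 in controls and 8.22, 7.05 and 9.36 after ouabain at 7 days. Its groups overlapped at both days and its difference of 1.06 ± 0.61 was smaller than 2 standard errors. Cyp26a1, which degrades retinoic acid, read between 4.85 and 5.32 at 3 days, 5.40, 5.26 and 5.30 in the controls at 7 days, and 6.74, 5.26 and 7.21 after ouabain. One of the 3 ouabain arrays thus stood at the control level. The part of epithelium from outside the nerve in these values was not tested.

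Other genes of the retinoid pathway moved in different ways. Aldh1a3, which makes retinoic acid, was lower at both days, by -2.36 and -3.71 ± 0.19 (limma adjusted p = 2.3e-07 at 7 days), and Aldh1a2, a second such enzyme and a marker of the meninges, was higher at 7 days, at 0.94 ± 0.14 (limma adjusted p = 0.000394), and differed by 0.07 at 3 days. Its day difference of 0.87 gave a limma adjusted p = 0.0734. In all, 4 of 9 meningeal markers were called higher at 7 days, and their mean level at 7 days was 10.84 to 11.02 in controls and 11.2 to 11.4 after ouabain. Rdh10, a retinol dehydrogenase, was called at 7 days at 0.71 ± 0.10 (limma adjusted p = 0.000216) and differed by 0.54 at 3 days, below the fold threshold (limma adjusted p = 0.00147). Its day difference did not pass (limma adjusted p = 0.671). Crabp2, Rarb and Cyp26b1 differed by 0.29 to 0.36 at 7 days and were not called.

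Among the secreted signals, Stc2, stanniocalcin, a glycoprotein hormone that inhibits a protease of growth factor binding proteins, read 6.71, 6.73 and 6.15 in controls and 6.45, 6.68 and 6.23 after ouabain at 3 days, then 6.41, 6.71 and 6.76 in controls and 8.23, 8.31 and 8.47 after ouabain at 7 days. The 9 other arrays lay between 6.15 and 6.76, and the difference was 1.71 ± 0.17. Its other probe sets differed by 0.97 and 0.35 at 7 days, so the sizes disagree between probe sets while the direction does not. Its relative Stc1 differed by 0.47 ± 0.14, below the fold threshold.

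Agt, the precursor of angiotensin, read 8.73, 8.70 and 8.41 in controls and 8.36, 8.41 and 8.55 after ouabain at 3 days, then 7.80, 8.48 and 8.36 in controls and 9.03, 9.01 and 9.61 after ouabain at 7 days. Its difference of 1.001 ± 0.19 was the smallest of the 32, and at 3 days it stood at -0.18. The ouabain arrays of 7 days still exceeded all others. Of 13 other genes of the renin-angiotensin and kinin systems, 3 passed as higher at 3 days and 1 did at 7 days, Anpep, an aminopeptidase, at 1.29 and 0.85 ± 0.17 (limma adjusted p = 0.00291 at 7 days), and the angiotensin receptor Agtr1a and the converting enzyme Ace differed by 0.31 and 0.19.

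Gfra3 is the receptor for artemin, a survival factor of sensory and sympathetic neurons, and signals with Ret. It read 6.70, 6.70 and 6.87 in controls and 7.05, 7.19 and 6.89 after ouabain at 3 days, then 7.07, 7.11 and 6.70 in controls and 7.68, 8.34 and 8.08 after ouabain at 7 days. The ouabain arrays were above the controls at both days, with differences of 0.29 and 1.08 ± 0.16, and the first lay just inside the 3-day limit. Its ligand Artn was near the low end of the scale and differed by 0.54 ± 0.15 at 7 days, not passing the fold threshold, and Ret was lower, at -1.31 ± 0.28 (limma adjusted p = 0.00409). Of 17 other neurotrophic ligands and receptors, 5 were higher and 1 lower at 3 days, and 7 were higher and 1 lower at 7 days. Gfra2, the neurturin receptor, Gdnf, the ligand of Gfra1, and Ngfr, the low-affinity neurotrophin receptor, were higher by 2.94 ± 0.30, 2.81 ± 0.25 and 2.17 ± 0.18 at 7 days (limma adjusted p = 2.34e-05, 8.91e-06 and 5.56e-06), and by 2.14, 2.99 and 2.35 at 3 days.

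Snai2, a zinc-finger repressor of cell adhesion genes in neural crest and fibroblasts, read 8.65, 7.58 and 7.66 in controls and 8.81, 7.86 and 7.98 after ouabain at 3 days, then 7.43, 7.83 and 7.79 in controls and 8.69, 8.84 and 8.96 after ouabain at 7 days. The groups were apart at 7 days, but 2 arrays of 3 days, a control and an ouabain array that share replicate number 1, reached 8.65 and 8.81, near the ouabain arrays of 7 days. The difference was 1.15 ± 0.29. Its probe set is of the x_at kind, and the other one differed by 0.78. Relatives in this repressor family were compared, with the list of relatives written after the 32 genes were known. Snai1 was called at 7 days, at 0.84 ± 0.16 (limma adjusted p = 0.00223), and Zeb1 and Zeb2 at both days, at 1.204 ± 0.10 and 1.90 ± 0.15 at 7 days. The day difference of Snai1 did not pass (limma adjusted p = 0.336). Twist1 was called at 7 days, at 0.70 ± 0.13 (limma adjusted p = 0.00177), stood at -0.25 at 3 days, and its day difference of 0.96 passed the test (limma adjusted p = 0.0355). Lower controls at 7 days, with a mean of 8.11 against 8.51 at 3 days, entered this difference.

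Ifi27l2a, an interferon-induced mitochondrial protein, read 9.22, 12.10 and 9.68 in controls and 9.82, 9.61 and 11.28 after ouabain at 3 days, then 9.52, 9.66 and 9.93 in controls and 10.54, 10.59 and 11.41 after ouabain at 7 days. The 7-day groups did not overlap, but a control of 3 days was the highest of all 12 arrays and the difference of 1.14 came with a standard error of 0.63. Of 16 other genes of the type I interferon response, 0 were called by limma at either day. With an unadjusted p under 0.05 and the fold threshold kept, 1 passed at each day. The methods' t-test with adjusted p called 0 at both days and, unadjusted, 0 at 3 days and 4 at 7 days. Xaf1 differed by 1.12 ± 0.40 (limma adjusted p = 0.0596) and Ifi44l by 0.98 ± 0.66 (limma adjusted p = 0.326), with a median of 0.38 over the 16.

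Others of the 32 genes encode enzymes of metabolism. Hsd17b6, a steroid and retinol dehydrogenase, read between 5.85 and 6.88 at 3 days, 6.30, 6.99 and 7.06 in the controls at 7 days, and 7.28, 7.92 and 8.37 after ouabain, a difference of 1.08 ± 0.31. Its dim second probe set differed by -0.24. Fmo1, a flavin monooxygenase, read between 7.68 and 8.33 at 3 days, 8.20, 7.79 and 8.05 in the controls at 7 days, and 9.10, 8.81 and 9.15 after ouabain, with 1.01 ± 0.14. Of 14 other detoxification genes, 1 was higher and 1 lower at 7 days, the retinal dehydrogenases named above. Of all genes 7.57% were called higher and 8.20% lower at that day, so nothing is read from these counts.

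Fbp2, a fructose-bisphosphatase of muscle, read between 6.49 and 6.85 at 3 days, 6.60, 6.96 and 6.87 in the controls at 7 days, and 7.52, 7.96 and 8.11 after ouabain, with 1.06 ± 0.15. Its relative Fbp1 was called at 3 days, at 1.04 ± 0.14 (limma adjusted p = 0.000162), and stood at 0.19 at 7 days. Of 10 skeletal muscle markers 1 was lower at 7 days, against 8.20% of all genes. The list means were 5.29 to 5.59 on the 6 arrays of that day. Degs2, a hydroxylase of sphingolipids, read between 7.93 and 8.32 at 3 days, 7.38, 8.32 and 8.02 in the controls at 7 days, and 8.45, 9.13 and 9.19 after ouabain, so that the groups of 7 days were 0.13 apart. The difference was 1.02 ± 0.23, and the related Degs1, bright on all arrays, differed by -0.05.

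Dpep1, a membrane dipeptidase, read between 8.73 and 9.13 at 3 days, 7.93, 8.79 and 8.71 in the controls at 7 days, and 9.28, 9.82 and 9.55 after ouabain, with 1.07 ± 0.22. Arsi, an arylsulfatase, read between 6.45 and 6.97 at 3 days, 6.42, 6.56 and 6.40 in the controls at 7 days, and 7.52, 7.59 and 7.48 after ouabain, with 1.07 ± 0.13. Arsi had the tightest ouabain arrays of the 32 genes at 7 days, with an SD of 0.05, while the lowest control of Dpep1, replicate 1, lay 0.78 below the next. The related Arsj was called at both days, at 1.63 and 1.07 ± 0.15 (limma adjusted p = 0.000241 at 7 days).

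The remaining genes have a role that is less well described. Fndc7 had 3-day means of 5.81 in controls and 5.87 after ouabain, and read 5.13, 5.78 and 5.44 in the controls at 7 days, and 6.30, 6.36 and 6.98 after ouabain, with 1.10 ± 0.21, and its other probe sets differed by 0.17 to 0.56. The transcript 5031426D15Rik read between 5.77 and 6.41 at 3 days, 5.55, 5.04 and 6.03 in the controls at 7 days, and 6.76, 6.97 and 6.08 after ouabain. Its lowest ouabain array exceeded the highest control by 0.05, and its difference was 1.06 ± 0.25.

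A difference at 7 days with none at 3 days can come from the ouabain-treated ears, from the controls, or from both. From 3 to 7 days the mean of the ouabain arrays differed by 0.40 to 5.71 for the 32 genes, with a median of 0.91. It was at least 1 for 12 genes and at least 0.5 for 30. The controls changed by -0.63 to 0.63, with a median of -0.11. For 9 genes the controls were lower at 7 than at 3 days by more than 0.3, which 3.49% of all genes were, and for 3 genes higher by more than 0.3, against 3.87% of all. The 9 were Ifi27l2a, Lox, Col6a1, Agt, 5031426D15Rik, Dpep1, Clca3a1, Fndc7 and Krtdap, and the 3 were Col1a1, Cpxm1 and Hsd17b6. Since lower controls at 7 days enter the rule directly, nothing more is read from these counts. Between the 7-day and 3-day controls limma called 0 of the 32 genes, against 0.00550% of all genes higher and 0.0110% lower. With an unadjusted p under 0.05 and the 1.5-fold threshold kept, it was also 0. Smaller changes of the controls could not enter these counts. Over the 32 genes the median difference from the control mean was 1.04, 1.16 and 1.34 on ouabain replicates 1, 2 and 3 at 7 days, and 0.19, 0.13 and 0.02 on those at 3 days.

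**Figure D4:**
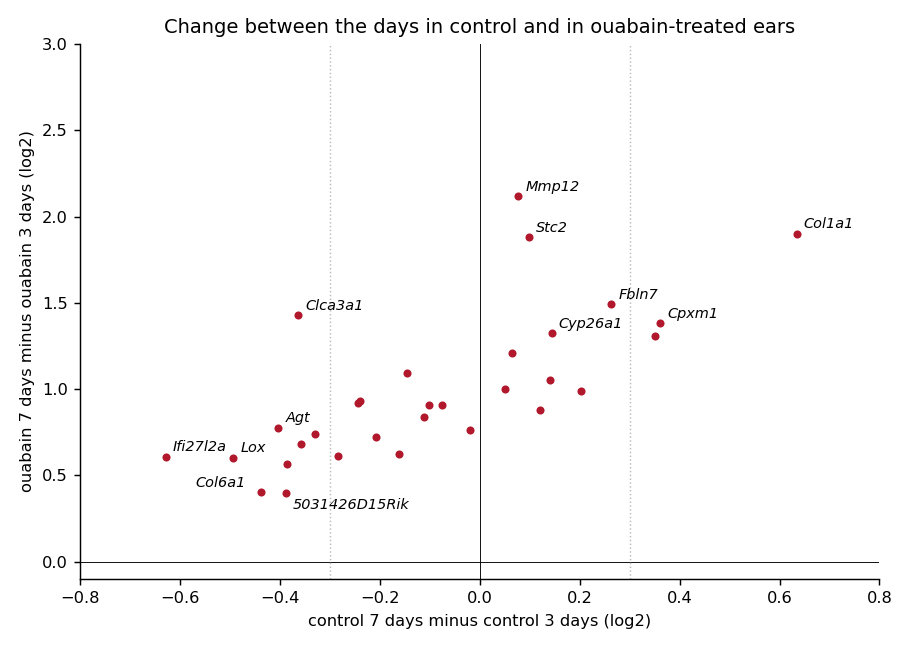
Change of the control mean (x axis) and of the ouabain mean (y axis) from 3 to 7 days (log2) for 31 of the 32 genes, with dotted lines at -0.3 and 0.3. Clca3a2, at -0.11 and 5.71, is left out so that the others can be seen. All points lie above 0, from 0.40 for 5031426D15Rik and Col6a1 to 2.12 for Mmp12, and Lox, Agt and Ifi27l2a lie left of the dotted lines.

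Many of the 32 genes stood near a limit. Just inside the 7-day limit were Agt, Fmo1, Degs2, Col11a1 and Fbp2, from 1.001 to 1.06, and just outside it were Cd83, Thbs4, Iigp1, Gm19935 and Efcab10, from 0.998 for Cd83 down to 0.96. Just inside the 3-day limit were Clca3a1, Cpxm2, Gfra3, 5031426D15Rik and Mia, at 0.28 to 0.30. The nearest outside were Prrx2, Sftpd, Krt18, Dmkn and Traf1, with sizes of 0.33 to 0.35, of which Dmkn lay below the controls at 3 days. The level kept in Clca3a1, at 6.01, and left out Capsl at 5.9965, Serpina7 at 5.72 and 2210407C18Rik at 5.01. Serpina7 would have ranked second, with a 7-day difference of 2.96.

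Leaving out each array in turn, 26 to 62 genes met the rule. The 62 came without ouabain replicate 2 at 7 days, where 28 of the 32 remained. Without control replicate 1 at 7 days, whose markers stood apart, 26 genes met it and 21 of the 32 remained, and the 11 lost were Igsf5, Clec10a, Fndc7, Prss22, Cpxm2, Hsd17b6, Dpep1, Dynlrb2, Fbp2, Degs2 and Agt. Without ouabain replicate 3 at 7 days 26 genes met it and 18 of the 32 remained. Only Clca3a2, Stc2, Fbln7, Cpxm1 and Arsi met the rule with any of the 12 arrays left out. The 7-day difference stayed at 0.5 or more for 31 of 32 genes in all 12 cases, the exception being Dynlrb2, and at 1 or more for 14. With group medians in place of means, 38 genes met the rule and 17 of the 32 were among them.

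**Figure D5:**
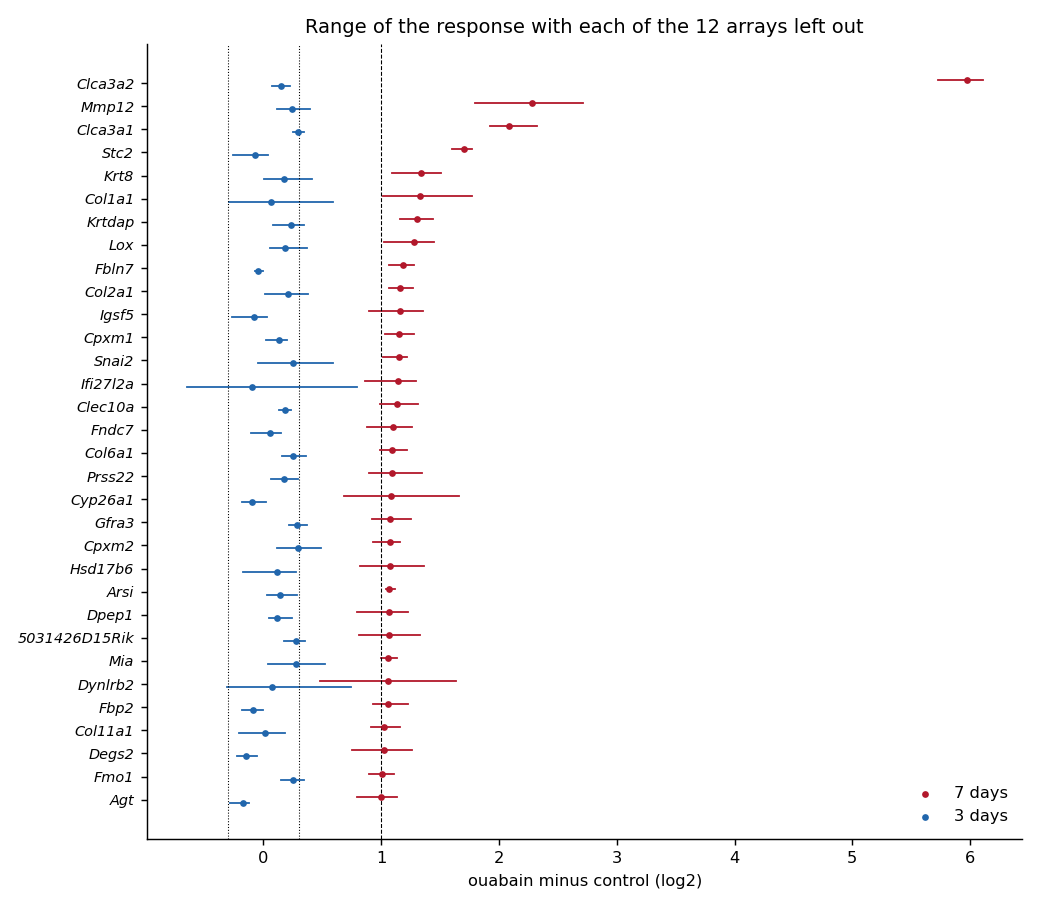
Difference between ouabain-treated and control means (x axis, log2) for each of the 32 genes at 7 days (red) and 3 days (blue), with points for all 12 arrays and lines for the range when each array is left out, the 7-day limit dashed and the 3-day limits dotted. Most red lines cross the limit of 1, and the blue line of Ifi27l2a is the widest.

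Other probe sets of the same genes read the same RNA on the same arrays that chose the genes, so they are not independent of the choice. Of the 32 genes, 20 have a single probe set and 12 have several. Of their 17 other probe sets, 13 differed by at least 0.5 at 7 days and 5 met the whole rule, those of Clca3a2, Krt8, Col1a1 and Lox. Both of those of Krt8 are of the x_at kind. Over all 45037 tested probe sets, 51 met the limits of the rule. The share of all probe sets that differed by at least 0.5 at 7 days was not counted, so nothing is read from these counts. Further probe sets, passed over because another of the gene was brighter and chosen here after their values were seen, included those of Epha5, at 1.53, Cxcl1, at 1.41, Bdnf, at 1.35, and Arg2, at 1.13, which met the limits of the rule while the brightest probe sets of these genes differed by 0.69, 0.04, 0.88 and 0.85 at 7 days. Among relatives of the 32 genes, 66 were measured, of which 11 were higher and 1 lower at 3 days, and 16 were higher and 1 lower at 7 days, with 7 higher at both and a median of 0.35 at 7 days.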

How the data were processed

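Modiolus RNA was measured on 12 Affymetrix mouse genome arrays in 4 groups of 3. RMA in the Affymetrix Expression Console was the authors' way from scans to values. What they deposited is 1 log2 value for each probe set and array, and it was normalized no further here. Tool versions are not given in the sources used here. The RNA input differs between the paper and the labels. Of the probe sets, 64 array controls were left out and 45037 tested. Symbols came from the platform annotation, where 34945 probe sets carry 1 symbol, 932 several and 9160 none, and 34741 were matched to RefSeq by Entrez identifier.

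One limma model (limma 3.58.1, R 4.3.3) with a mean for each group was fitted to all 12 arrays with empirical Bayes moderation. Calls needed p under 0.05 after Benjamini-Hochberg adjustment and more than a 1.5-fold change. Differences are given as ouabain over control on the log2 scale, with the SE of that model. The methods' t-test is the unpaired equal-variance test that the study names. Replicate numbers were not taken as pairs. The procedure was tested on simulated data. Figures and the motif search used Python 3.11.15, and 1 promoter window is not reported here. The 32 genes, the pathway and marker lists and the rule for naming genes were chosen with earlier results of these data known. All 32 genes are named. Of other genes in a pathway list, those called at 7 days with the largest changes are named, up to 4 a list, or 2 where none was called, and further genes, relatives included, were named after their values were seen. Alternatives were other limits of the rule, group medians, the mean over probe sets, quantile normalization applied again, scaling to the 75th percentile, a filter on low values, no fold threshold, a trend with robust moderation, a replicate block, a fit on the day alone, the methods' t-test, and each array left out, and, after the data were seen, 2 arrays left out together.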

Additional observations from a re-analysis of the deposited data

Results flagged for a closer look

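The 3-day and 7-day responses of 4 genes outside the rule differed by limma's test of the difference itself, among the pathway genes and relatives that were named. Twist1 was higher than its controls at 7 days, by 0.70, and not at 3 days, where it stood at -0.25, and the day difference was 0.96 ± 0.18 (limma adjusted p = 0.0355). It arose on both sides, with control means of 8.51 at 3 days and 8.11 at 7 days and ouabain means of 8.25 and 8.81. Rdh5, a retinol dehydrogenase related to Hsd17b6, was higher by 1.48 at 3 days and stood at -0.03 at 7 days, a day difference of -1.51 ± 0.17 (limma adjusted p = 0.00172). Aldh1a3 was lower at both days and lower still at 7 days, with a day difference of -1.35 ± 0.27 (limma adjusted p = 0.0445). Ncmap, a myelin membrane protein, was lower at both days, by -1.47 and -2.48, with a day difference of -1.01 ± 0.19 (limma adjusted p = 0.0346). Over all genes, 0.247% were called with a higher and 0.923% with a lower response at 7 days. Groups of 3 arrays are too small for a search for single outlying arrays.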

How the results depend on the processing

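The number of genes that met the rule moved with its limits, from 32 to 89 with a 7-day difference of at least 0.8 and to 4 with 1.5, and to 21 with 3-day differences within 0.2 and 54 within 0.5. It was 27 to 38 with another level, medians, probe set means or another scaling, 23 without control replicate 1 and ouabain replicate 3 of 7 days together, of which 14 were among the 32, and 26 to 62 with each array left out. The methods' t-test with adjusted p called 15 of the 32 genes higher at 7 days where limma called 29, 801 genes higher at 7 days where limma called 1378, and 42 genes of the pathway lists where limma called 74. The other alternatives gave 27 to 30 of the 32. Without a fold threshold the counts were 3121 higher and 2629 lower at 7 days, against 1378 and 1492, and 2732 and 2678 at 3 days, against 1367 and 1467. A higher day difference was called for 45 genes, for 91 with a trend and robust moderation, and for 93 with the filter on low values, and the lower controls at 7 days numbered 2, and 4 with the trend. With each array left out the counts were 1126 to 1622 higher and 1407 to 1556 lower at 7 days, 1216 to 1539 higher and 1336 to 1609 lower at 3 days, 17 to 69 higher and 86 to 291 lower by day difference, 0 to 1 higher and 0 to 4 lower between controls, 27 to 29 of the 32 genes, and 61 to 80 higher and 15 to 16 lower in the pathway lists.

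With the replicate number as a block, 30 of the 32 genes were called at 7 days and 1420 genes were higher, and it moved no count of calls by over 1.5 times. Same-numbered control and ouabain arrays deviated together with r of 0.334, 0.089 and 0.177 at 3 days and 0.277, 0.155 and 0.019 at 7 days, and not every array correlated best with its own number. For the controls of the 2 days against each other the block could not be fitted, since each number occurs within 1 day. Of 93 single genes followed over up to 20 alternatives, 68 were unchanged in all, and none reversed. Genes outside the rule counted as unchanged when they stayed on their side of the call threshold. For the 32 genes only the size of the 7-day difference was compared with its spread. Several alternatives, such as the methods' t-test, leave that size as it is, so the 68 say nothing about the calls of the 32 genes. The 3 arrays per group and, for genes near the low end of the scale, the signal over background limit what these values can show.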

Other observations

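Outside the genes of the rule, 9 of 20 neutrophil chemokines and acute inflammatory mediators were called higher at 7 days and 4 at 3 days, with a median difference of 0.59 at 7 days. Ptgs2, the inducible cyclooxygenase, differed by 0.81 at 3 days and 2.15 ± 0.36 at 7 days (limma adjusted p = 0.143 and 0.000927), and Cxcl5, a chemokine for neutrophils, by 0.44 and 1.64 ± 0.35 (limma adjusted p = 0.458 and 0.00416). Icam1, an adhesion molecule for leukocytes, differed by 0.57 at 3 days, below the fold threshold, and was higher by 1.33 ± 0.17 at 7 days (limma adjusted p = 0.025 and 9.88e-05), and Saa3, an acute phase protein, by 3.32 at 3 days and 1.94 ± 0.37 at 7 days (limma adjusted p = 0.0022 at 7 days). The day differences of Ptgs2, Cxcl5, Icam1 and Saa3 did not pass, with limma adjusted p from 0.177 to 0.324. Neutrophil markers ranged from 7.53 to 9.82 in the controls at 7 days and from 7.78 to 8.55 after ouabain.

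Of 19 genes of lipid transport, 6 were higher at 3 days and 10 at 7 days. Apoc1 and Apoc2, apolipoproteins, were higher by 2.38 ± 0.22 and 1.89 ± 0.24 at 7 days (limma adjusted p = 1.1e-05 and 0.000109), Abca1, a cholesterol exporter, by 1.42 ± 0.08 (limma adjusted p = 2.5e-07), and Lrp1, a lipoprotein receptor, by 0.95 ± 0.10 (limma adjusted p = 3.63e-05). At 3 days Apoc1, Apoc2 and Abca1 were higher by 1.37, 1.77 and 1.61. Lrp1 differed by 0.32 at 3 days, below the fold threshold (limma adjusted p = 0.0436), and its day difference did not pass (limma adjusted p = 0.0773). Of 16 Notch and Hes genes, 5 were higher and 1 lower at 7 days, with Notch1 at 1.07 ± 0.13 and Hey2 at -1.21 ± 0.16, which stood at 0.74 and -1.10 at 3 days. Of 13 genes of mature myelin, 9 were lower at 7 days. Of 17 repair Schwann cell genes 11 were called higher, 2 lower and the rest in neither direction at that day. Among all genes 7.57% were called higher and 8.20% lower at 7 days.

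Beyond the 32 genes, 1 probe set with several symbols and 1 with none met the limits of the rule, with 7-day differences of 1.02 and 1.18.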
